A study of Mus musculus with 6 samples.

Results

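The nuclear genes for the subunits of oxidative phosphorylation were followed through IL-4 treatment of RAW264.7 cells, a mouse macrophage line, one respiratory complex at a time. Members were taken by symbol: names starting Nduf with a, b, c, s or v and a digit for complex I, names starting Uqcr plus Cyc1 for complex III, names starting Cox with a digit from 4 to 8 for complex IV, and names starting Atp5 for complex V. This gave 83 of the 25124 genes in the expression table: 39 for complex I, 9 for complex III, 18 for complex IV and 17 for complex V. No expression value entered the choice. The pattern leaves out complex II, the mitochondrially encoded subunits and Ndufab1, the acyl carrier subunit of complex I.

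The study holds 6 poly(A) RNA-seq libraries of 1 line, 3 of untreated cells (M0) and 3 of cells given 10 ng/ml IL-4 (M2). The line was made as a knockout control: it received a Cas9 plasmid that carried no guide RNA, and both groups share that history, high-glucose medium (25 mM) and 10% serum. The labels give neither the duration of IL-4 nor whether replicates were separate cultures, so p-values measure the spread between these libraries, which may be technical. The titles of the 3 M0 samples carry a note of re-analysis that the M2 titles lack, so IL-4 and any difference between those sets of libraries cannot be told apart. All 7 macrophage markers checked were above 1 TPM, with summed levels of 2328 to 2541 TPM in M0 and 2115 to 2222 TPM in M2. None of 16 markers of T, B, epithelial, fibroblast or endothelial cells had a mean of 1 TPM, their sum stayed between 1.53 and 2.08 TPM in all 6 libraries, and Cd8a and Krt8 were among those at 0. The unit is TPM, the transcripts of a gene per length of its model, scaled by library, and the values rest on 15615639 to 19511192 reads in gene models per library.

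In oxidative phosphorylation, complex I takes electrons from NADH and complex II from succinate, ubiquinone carries them to complex III, cytochrome c carries them on to complex IV, and oxygen receives them there. Complexes I, III and IV pump protons across the inner mitochondrial membrane, and complex V, ATP synthase, uses the gradient to make ATP. Most subunits are encoded in the nucleus, and NRF1, the ETS factor GABPA, the ERR receptors and YY1 are textbook regulators of these genes. Macrophages treated with IL-4 are known for oxidative metabolism, and STAT6 is the transcription factor that the IL-4 receptor activates.

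The 250 bases before the annotated start are shown for 5 members described below: Ndufs8 and Ndufa9 (higher in M2), Cox7a1 (lower in M2), and Ndufb4 and Atp5j, which did not pass the test but carry matches to the motifs of the usual regulators. Sequences are from RefSeq on GRCm38.p6, read 5′ to 3′ on the strand of the gene, and capitals mark a match to any of 5 motifs searched on both strands.
Ndufs8, chr19:3912775-3913024, minus strand: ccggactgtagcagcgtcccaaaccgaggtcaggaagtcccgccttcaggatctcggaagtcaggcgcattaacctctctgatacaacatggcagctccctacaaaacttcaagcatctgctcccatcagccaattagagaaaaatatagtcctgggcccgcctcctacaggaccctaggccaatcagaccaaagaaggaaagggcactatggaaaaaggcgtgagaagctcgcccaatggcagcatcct
Ndufa9, chr6:126849145-126849394, minus strand: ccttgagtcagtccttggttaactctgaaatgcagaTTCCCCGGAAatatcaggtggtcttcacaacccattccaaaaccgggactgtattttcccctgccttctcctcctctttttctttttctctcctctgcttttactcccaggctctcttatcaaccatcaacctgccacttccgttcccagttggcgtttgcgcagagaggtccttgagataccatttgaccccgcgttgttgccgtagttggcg
Cox7a1, chr7:30183921-30184170, plus strand: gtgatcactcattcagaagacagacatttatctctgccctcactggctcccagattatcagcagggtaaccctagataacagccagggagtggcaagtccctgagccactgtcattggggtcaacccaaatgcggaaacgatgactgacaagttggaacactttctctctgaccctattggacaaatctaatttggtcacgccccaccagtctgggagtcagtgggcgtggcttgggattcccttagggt
Ndufb4, chr16:37654369-37654618, minus strand: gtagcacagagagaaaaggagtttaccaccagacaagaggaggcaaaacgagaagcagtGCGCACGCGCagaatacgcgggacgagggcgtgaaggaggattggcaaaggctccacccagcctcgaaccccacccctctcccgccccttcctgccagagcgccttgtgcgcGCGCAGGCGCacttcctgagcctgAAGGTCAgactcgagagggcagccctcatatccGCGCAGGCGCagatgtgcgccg
Atp5j, chr16:84834977-84835226, minus strand: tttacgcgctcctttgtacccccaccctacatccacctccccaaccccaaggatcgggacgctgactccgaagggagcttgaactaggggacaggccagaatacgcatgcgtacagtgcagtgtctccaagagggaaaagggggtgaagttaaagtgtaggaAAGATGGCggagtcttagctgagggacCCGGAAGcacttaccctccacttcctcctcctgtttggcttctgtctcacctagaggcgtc
The motifs were NRF1 (GCGCA and GCGC with any 1 base between), the ETS motif of GABPA (CCGGAAG), ERR (AAGGTCA), YY1 (AAGATGGC) and STAT6 (TTC and GAA with any 4 bases between); a match is a description of the letters and not a binding site. Ndufb4 held 3 NRF1 matches, beginning 191, 79 and 22 bases before the start, and an ERR match 55 bases before it. Atp5j held a YY1 match 88 bases before the start and an ETS match 61 bases before it. Ndufa9 held a STAT6 match 214 bases before the start, while Ndufs8 and Cox7a1 held none of the 5 in the stretch shown. In the longer window used below, which adds 50 bases after the start, Ndufs8 held 1 ETS match and Ndufa9 also 1 YY1 match.

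Promoter windows from 250 bases before to 50 after the start were at hand for 65 of the 83 members. Where a gene had several windows, the one nearest the start of the gene model was taken for members. For the shares of all promoters and of tested genes it was the first by coordinate, so the windows compared were not chosen alike. The window of Atp5f1 lay 985 bases from the start of its model. NRF1 matched in 14 of the 65 (21.5%), against 4.7% of all 27025 promoters and 11.6% of the 8737 promoters of tested genes. YY1 matched in 15.4% of members, against 2.9% of all promoters and 5.3% of those of tested genes. ERR stood at 10.8%, against 4.7% and 3.2%. ETS stood at 23.1%, against 9.1% and 20.5%, and STAT6 at 6.2%, against 7.0% and 5.4%, so these shares lay closer to those of other tested genes. Of the 6 members higher in M2 that have a window, NRF1, ETS and STAT6 each matched in 1, YY1 in 2 and ERR in 0. The start of another protein-coding gene pointed away from the member's start within 1000 bases at 16 of 83 members (19.3%), against 6.8% of 21951 protein-coding genes. Those genes include ones not expressed here, and the share among tested genes was not computed. Atp5j shares 397 exon bases with Gabpa, the gene of GABPA itself, which lies on the opposite strand.

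Most subunit genes differed little between M2 and M0. A gene was tested when it reached 1 TPM in at least 3 of the 6 libraries, which 74 members did, and it was called at a Benjamini-Hochberg adjusted p under 0.05 over all 11202 tested genes (limma on log2(TPM + 1)). Of the 74, 12 were called (16.2%), 8 higher and 4 lower in M2, against 43.7% of all tested genes (20.1% higher and 23.7% lower). The 8 rises lay between 1.137- and 1.237-fold in mean TPM, the 4 falls between 0.8679- and 0.6697-fold, and none of the 12 reached a 2-fold change. The median log2 fold change was 0.004 for complex I, 0.010 for complex III, -0.075 for complex IV and -0.029 for complex V, beside -0.030 over all tested genes. For 61 of the 62 members that were not called, the 95% interval of the fold change lay within 1.5-fold in either direction; Atp5e was the exception. TPM is a share of the library's RNA, so fewer cells expressing a gene and less of its RNA per cell cannot be told apart.

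**Figure D1:**
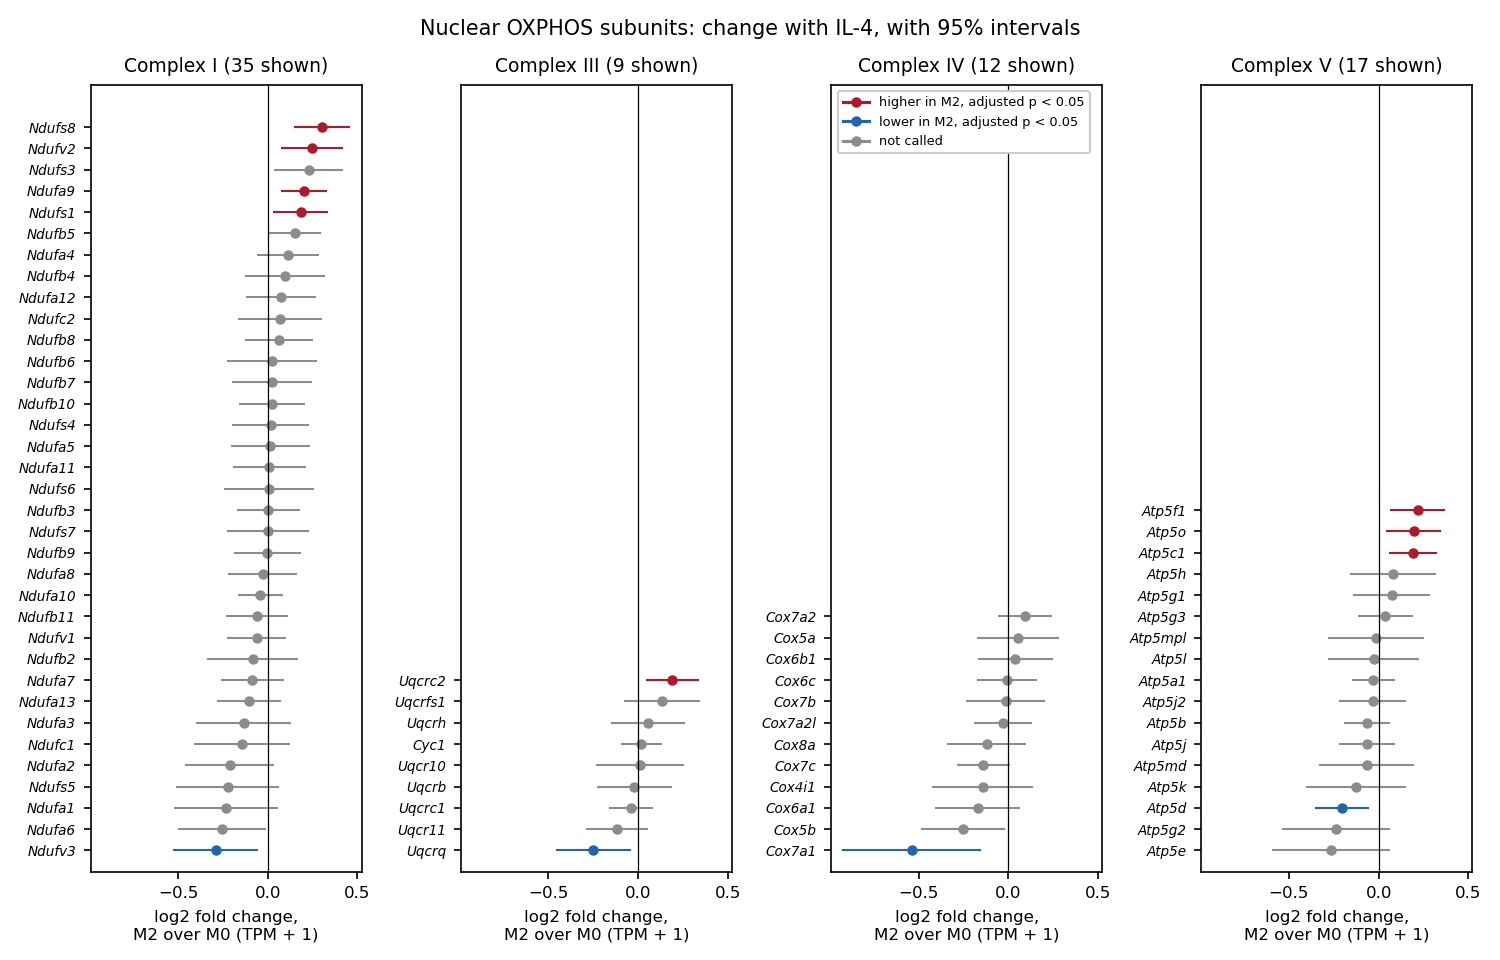
Log2 fold change of tested subunit genes, M2 over M0 on the log2(TPM + 1) scale, by complex, with bars for the 95% interval (3 libraries per group); red and blue mark an adjusted p under 0.05. The 8 red and 4 blue points lie toward the ends of the panels, and complex IV has no red point.

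Taken as sums, the 83 members made up 2.785, 2.617 and 2.748% of the TPM of all listed genes in M0 replicates 1 to 3 and 2.635, 2.487 and 2.925% in M2 replicates 1 to 3. The M2 values lay on both sides of the M0 range. Summed TPM was 4936 ± 201 in M0 and 4963 ± 494 in M2 for complex I, 1510.0 ± 43.7 and 1521 ± 97.8 for complex III, 3760.0 ± 189.6 and 3591 ± 402 for complex IV, and 4830.0 ± 110.4 and 4806 ± 373 for complex V (SD, n = 3 each). For each complex the M2 libraries spread more than the M0 libraries, and M2 replicate 2 held the lowest sum and M2 replicate 3 the highest sum of the 6.

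M2 replicates 2 and 3 stood apart across the members. On the log2(TPM + 1) scale, the 74 tested members lay at a median of 0.13 above their own M0 mean in M2 replicate 3 and 0.13 below it (-0.13) in M2 replicate 2, with -0.02 in M2 replicate 1 and between -0.07 and 0.04 in the M0 libraries. Replicate 3 was the highest of the 3 M2 libraries at 62 of the 74 members, and at 51 of 74 it was the highest while replicate 2 was the lowest. Over all tested genes the second pattern held for 1249 of 11202, and over tested genes with models up to 1000 bases for 455 of 1286; 54 of the 74 members are that short. The median ratio of M2 replicate 3 to replicate 2 was 1.20 over the members, 1.15 over short genes and 0.916 over all tested genes. Counts of calls are therefore also given without each of these libraries.

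**Figure D2:**
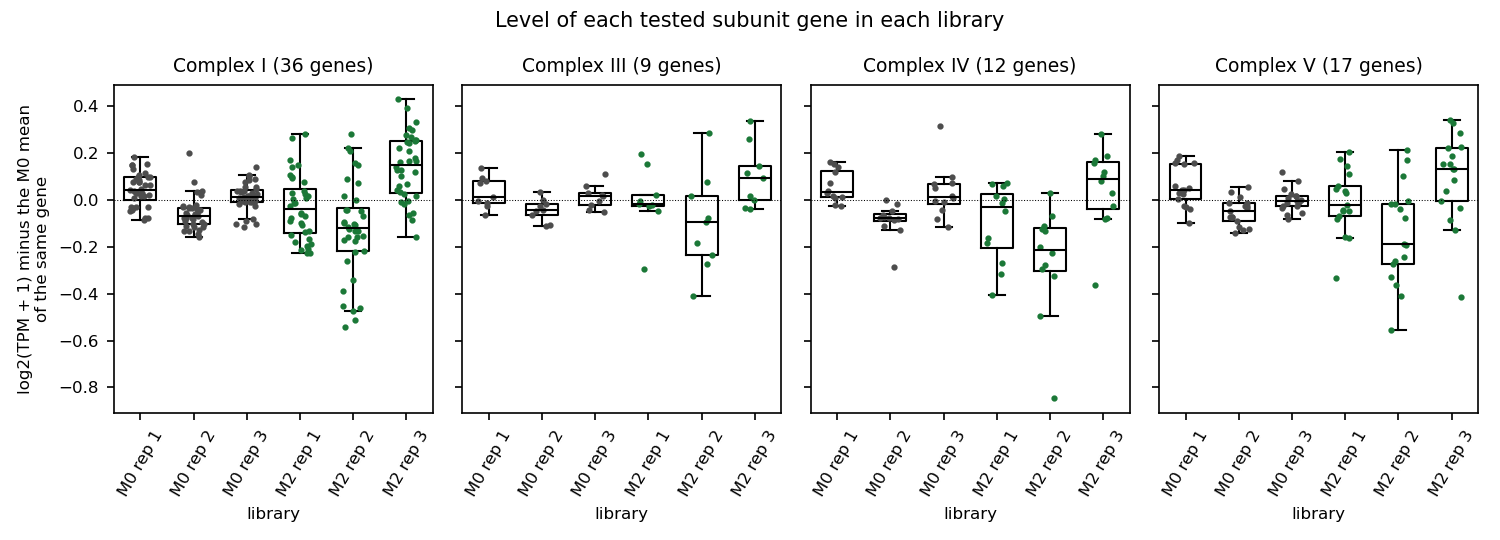
Level of each tested subunit gene in each library as log2(TPM + 1) minus the gene's M0 mean, by complex; points are genes, boxes run from the lower to the upper quartile with the median as a line, and whiskers reach to the last point within 1.5 box lengths. In all 4 complexes the medians of M2 replicate 2 are the lowest of the 6 libraries (from -0.22 to -0.09) and those of M2 replicate 3 the highest (from 0.09 to 0.15).

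Complex I held 4 of the 8 rises, 3 of them among the 7 core subunits of its peripheral arm, which carries electrons from NADH to ubiquinone. Ndufs8 (chr19:3908863-3912774), a core subunit that binds iron-sulfur clusters near the quinone site, had 180.5, 168 and 176 TPM in M0 and 209.6, 203 and 235 TPM in M2. Every M2 library was above every M0 library, at 1.24-fold (log2 0.30 ± 0.067 SE, adjusted p = 0.00631), the largest rise of any tested member. It was also the single member called in each of the 6 fits that leave out 1 library (adjusted p 0.00477 to 0.0332) and in all 17 alternative analyses.

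Ndufv2, which holds an iron-sulfur cluster of the NADH-oxidising module, had 139, 129 and 141 TPM in M0 and 150.2, 158 and 179 TPM in M2. The groups did not overlap, and the level was 1.19-fold higher (log2 0.25, adjusted p = 0.0244). The call was lost without any one of the M0 libraries (adjusted p 0.0523 to 0.098). Ndufs1, the large iron-sulfur subunit of the same module, had 111, 124 and 118 TPM in M0 and 131, 143 and 128 TPM in M2, 1.14-fold higher without overlap (adjusted p = 0.0477). Its call held in 1 of the 6 fits without a library (adjusted p 0.0204 to 0.156), the one without M2 replicate 3. Ndufs1 shares 489 exon bases with the antisense gene Ino80dos, which had a mean of 21.9 TPM in M0 and 25.1 TPM in M2; no source used here says that strand was used in counting, and without it the reads of such pairs cannot be told apart.

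Ndufs3, Ndufv1 and Ndufs7, also of the core, did not pass. Ndufs3 had 52.1, 45.6 and 50.7 TPM in M0 and 60.2, 51.9 and 62.4 TPM in M2 (adjusted p = 0.0514), with 1 M2 library below an M0 library. Ndufv1, which binds the flavin that accepts electrons from NADH, averaged 59.1 and 56.6 TPM (adjusted p = 0.495), and Ndufs7, an iron-sulfur subunit, 93.6 and 94.1 TPM (adjusted p = 0.992).

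Among the 9 accessory subunits of the peripheral arm, 1 rose and 1 fell. Ndufa9 (chr6:126821863-126849144), which sits where the arms of the complex join and whose promoter with a STAT6 match is shown above, had 129.7, 125 and 129 TPM in M0 and 144, 143 and 155 TPM in M2. All M2 libraries were higher, at 1.15-fold (log2 0.20, adjusted p = 0.0164), a call lost without M0 replicate 2 (0.0782) or M0 replicate 3 (0.0544). It shares 67 exon bases with the antisense transcript 1700018A23Rik, for which no value was used here. Ndufv3, a small accessory subunit of the NADH-oxidising module, fell from 166, 138 and 152 TPM to 132, 106 and 135 TPM, 0.820-fold without overlap (log2 -0.29, adjusted p = 0.0465). Its call was lost without M0 replicate 1, M0 replicate 3 or M2 replicate 2 (adjusted p 0.113 to 0.156).

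The 19 accessory subunits of the membrane arm, which hold the proton-pumping part in place, gave 0 calls by limma in either direction (1 at an unadjusted p under 0.05, and 0 by limma-voom on recovered reads), with log2 fold changes from -0.23 (Ndufa1) to 0.15 (Ndufb5). Ndufb5 had 137, 131 and 134 TPM in M0 and 144, 143 and 161 TPM in M2, which do not overlap, at an adjusted p of 0.074. Ndufb4, whose promoter with 3 NRF1 matches is shown above, had 11.2, 13.8 and 10.9 TPM in M0 and 12.8, 13.3 and 12.3 TPM in M2 (adjusted p = 0.452). Its mean was the lowest of the tested members in M0, while that of Cox7a1 was lower in M2. Ndufa4, named for complex I but since placed in complex IV, had 544, 489 and 507 TPM in M0 and 541, 518 and 608 TPM in M2 (adjusted p = 0.251), and counting it with complex IV changed no count of calls. Its hypoxia-induced relative Ndufa4l2 had 3 reads summed over the 3 M0 libraries and 3 summed over the 3 M2 libraries. The gene copies Ndufa11b and Ndufb4c had at most 1 read in a group, and Ndufb4c is identical to Ndufb4 over an aligned stretch of 390 bases, so that the level of Ndufb4 is uncertain.

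In complex III, Uqcrc2 rose and Uqcrq fell, out of 9 members. Uqcrc2, a core protein of the matrix side, had 174, 176 and 167 TPM in M0 and 198, 210.3 and 184 TPM in M2, 1.14-fold higher without overlap (log2 0.19, adjusted p = 0.0336). Unlike most members it was lowest of the M2 libraries in replicate 3, and its call held in 1 of the 6 fits without a library, the one without M2 replicate 3 (adjusted p = 0.00486, against 0.0744 to 0.128 in the others). It shares 504 exon bases with the antisense gene Pdzd9, which itself rose from 2.41 to 4.07 TPM (adjusted p = 0.00251); the part of those reads in the Uqcrc2 values was not tested.

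Uqcrq, a small subunit known as the ubiquinone-binding protein, had 155, 152 and 163 TPM in M0 and 127, 118 and 152 TPM in M2. M2 replicate 3 lay inside the M0 range, and the fall of 0.845-fold (adjusted p = 0.0492) became 0.00107 without that library. Without any one of the other 5 libraries the adjusted p was 0.0845 to 0.152. The electron carriers of the complex did not pass: Cyc1, cytochrome c1, had 206, 204 and 209.6 TPM in M0 and 209.7, 209 and 209 TPM in M2 (adjusted p = 0.77). Uqcrfs1, the Rieske iron-sulfur protein, had 127, 128 and 143 TPM in M0 and 132, 140.0 and 168 TPM in M2 (adjusted p = 0.259).

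Complex IV held 0 rises by limma (0 also at an unadjusted p under 0.05 and by limma-voom) and 1 fall among 12 tested members. Of the 12, 3 had a positive log2 fold change, against 5175 of the 11202 tested genes; under limma-voom with TMM factors and under median-ratio scaling 6 of the 12 did, against 5576 and 5694 of all genes. The fall was in Cox7a1, the isoform of subunit VIIa known from heart and skeletal muscle. It had 18.0, 14.8 and 23.1 TPM in M0 and 13.6, 9.78 and 14.1 TPM in M2, which do not overlap, and at 0.670-fold (log2 -0.54 ± 0.17 SE, adjusted p = 0.0297) it was the largest change of any tested member. It rested on 53 to 110 reads per library, and the call was lost without M0 replicate 1, M0 replicate 3 or M2 replicate 2 (adjusted p 0.0728 to 0.106). The common isoforms of the same subunit were far more abundant: Cox7a2 averaged 246 TPM in M0 and 263 TPM in M2 (adjusted p = 0.257), and Cox7a2l, which joins complexes III and IV into supercomplexes, 103 and 101 TPM (adjusted p = 0.752).

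Of the 10 common isoforms, 0 passed limma with all libraries (1 at an unadjusted p under 0.05, Cox5b, and 0 by limma-voom). Cox4i1, the regulatory subunit IV and one of the most abundant members beside Atp5b, had 759, 733 and 823 TPM in M0 and 618, 635 and 868 TPM in M2 (adjusted p = 0.371). Its M2 replicate 3 was the highest of all 6 libraries while the other M2 libraries were the lowest. Cox5b, a subunit on the matrix side, had 261, 243 and 265.5 TPM in M0 and 225, 181 and 243 TPM in M2 (adjusted p = 0.0701). Cox5a averaged 307 TPM in M0 and 321 TPM in M2 (adjusted p = 0.68). Cox6a1 averaged 381 and 341 TPM, Cox6b1 446 and 458 TPM, Cox7b 184 and 182 TPM, and Cox8a 572 and 527 TPM, with adjusted p from 0.203 to 0.912.

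The other 6 tissue isoforms of complex IV stayed below the level tested. Summed over the 3 libraries of a group, Cox6a2, the heart and muscle isoform, had 21 reads in M0 and 31 in M2, and Cox4i2, the isoform known from lung and low oxygen, 17 and 14. Cox6b2 had 4 and 1, Cox7b2 0 and 2, Cox8b 2 and 0, and Cox8c 1 and 0. Cox7a1 was therefore the one tissue isoform that reached the test, and no fold change is given for the others.

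In complex V, 3 of 17 members rose and 1 fell. Atp5c1, the gamma subunit that turns inside the catalytic head, had 311, 284 and 302 TPM in M0 and 337, 336 and 349 TPM in M2. The level was 1.14-fold higher without overlap (log2 0.19, adjusted p = 0.0232), and the call was lost without M0 replicate 2 (adjusted p = 0.12) or M0 replicate 3 (0.0722). The alpha and beta subunits that form the head around it did not pass: Atp5a1 had 359, 368 and 370.2 TPM in M0 and 354, 364 and 357 TPM in M2 (adjusted p = 0.66). Atp5b, which carries the catalytic sites, had 724, 762 and 749.5 TPM in M0 and 710.4, 724 and 702 TPM in M2 (adjusted p = 0.36).

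The peripheral stalk, which holds the head still, contributed 2 rises from 4 members. Atp5f1, its subunit b, had 309, 301 and 301 TPM in M0 and 327, 352 and 381 TPM in M2, 1.17-fold higher without overlap (log2 0.22, adjusted p = 0.0243). The call was lost without any one of the M0 libraries (adjusted p 0.0538 to 0.0855). It shares 337 exon bases with the antisense gene Wdr77, which rose from 24.6 to 44.6 TPM (adjusted p = 1.82e-05). Atp5o, the subunit that ties stalk to head, had 289, 264.6 and 283 TPM in M0 and 321, 299 and 340.0 TPM in M2, 1.15-fold higher without overlap (adjusted p = 0.0368). Its call held in 1 of the 6 fits without a library, the one without M2 replicate 2, and 702 of its exon bases are shared with antisense transcripts for which no value was used here. Atp5j, the coupling factor whose promoter is shown above, averaged 253 TPM in M0 and 242 TPM in M2 (adjusted p = 0.446).

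Atp5d, the delta subunit of the central stalk, fell from 169, 162 and 164 TPM to 147, 131 and 151 TPM. The groups did not overlap, at 0.868-fold (log2 -0.20, adjusted p = 0.0283), and the call was lost without any one of the M0 libraries or M2 replicate 2 (adjusted p 0.0692 to 0.0901). Atp5e, the epsilon subunit beside it, had 539, 493 and 584 TPM in M0 and 427, 366 and 571 TPM in M2 (adjusted p = 0.162), with M2 replicate 3 inside the M0 range. The 3 genes of the c-ring, the rotor in the membrane, which encode the same mature protein, gave 0 calls by limma: Atp5g3 averaged 495 and 509 TPM, Atp5g1 104 and 109.8 TPM, and Atp5g2 53.9 and 45.8 TPM in M0 and M2. The 5 small membrane subunits gave 0 calls too, with log2 fold changes from -0.12 to -0.02, of which 3 were positive under median-ratio scaling. In both sets 0 members passed at an unadjusted p under 0.05 or by limma-voom.

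**Figure D3:**
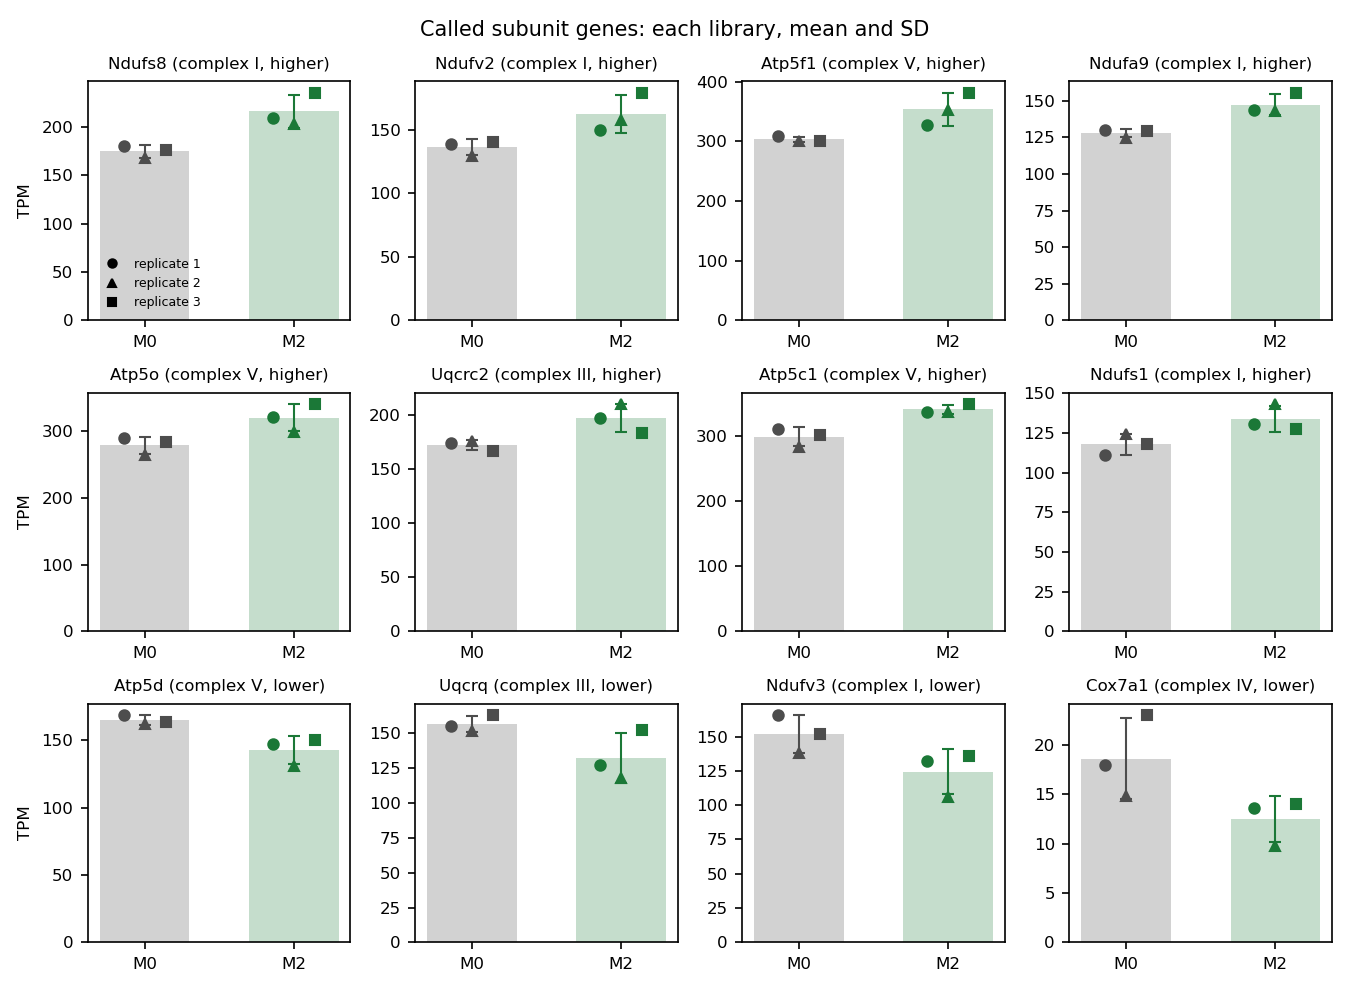
TPM of the 12 called subunit genes in each library. Bars are means, error bars SD (n = 3), and point shapes mark the replicate number, which the calls shown did not use as a pairing. In 11 of the 12 panels the groups do not overlap, and in Uqcrq M2 replicate 3 (152 TPM) lies inside the M0 range.

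Groups did not overlap at 14 of the 74 tested members, 9 with all M2 libraries higher and 5 with all lower, against 55.9% of all tested genes. Of the 8 members called higher, 5 share exon bases with an antisense gene, as do 18 of the 74 tested. Of the 4 called lower, 0 do. The share of all tested genes with such an overlap was not computed, and its relation to the calls was not tested. Near-identical copies among annotated transcripts of genes elsewhere (at least 95% identity over at least 50% of the member's GENCODE transcript) were found for 14 members. Reads could be split between such copies. Copies without an annotated transcript, or with a shorter match, were not counted. Ndufb4 is not among the 14, although Ndufb4c matches it, so the number may be too low. Among the called members a copy was found by this search for Atp5o alone, with 1 copy, and the most copies were found for Atp5l, at 9.

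Without M2 replicate 3, 7 of the 74 members were called higher (background 25.6%) and 17 of the 74 lower (background 25.2%). The share of falls thus lay near that of all tested genes, and the share of rises lay below it. The 4 falls of the whole set were among the 17. The 13 further falls included Ndufa1, Ndufb2, Ndufc1, Ndufs5, Ndufa2 and Ndufa6 in complex I, Cox4i1, Cox5b, Cox6a1 and Cox7c in complex IV, and Atp5e and Atp5md in complex V. Complex I then held 4 rises and 8 falls, complex III 1 and 1, complex IV 0 and 5, and complex V 2 and 3. The medians of the 4 complexes were all negative, at -0.10, -0.05, -0.11 and -0.11, and 17 of 74 members had a positive log2 fold change, against 34 with all libraries. With all libraries, 43 were positive under limma-voom with TMM factors and 45 under median-ratio scaling.

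In that fit Cox4i1 was lower by 0.30 on the log2 scale (-0.30, adjusted p = 0.00418) and Cox6a1 likewise (-0.30, adjusted p = 0.0032), Atp5e by more (-0.44, adjusted p = 0.00326), and Ndufa6 at -0.35 (adjusted p = 0.0132). Without M2 replicate 2 the picture turned: 7 members were called higher (background 16.2%), Ndufs3 among them (adjusted p = 0.0138), and 0 lower (background 22.1%), and 45 of 74 log2 fold changes were positive. At an unadjusted p under 0.05 that limma fit had 2 members lower. Members called higher with all libraries, without M2 replicate 3 and without M2 replicate 2 were Ndufs8, Ndufa9, Ndufv2, Atp5c1 and Atp5f1. No member was called lower in all 3.

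**Figure D4:**
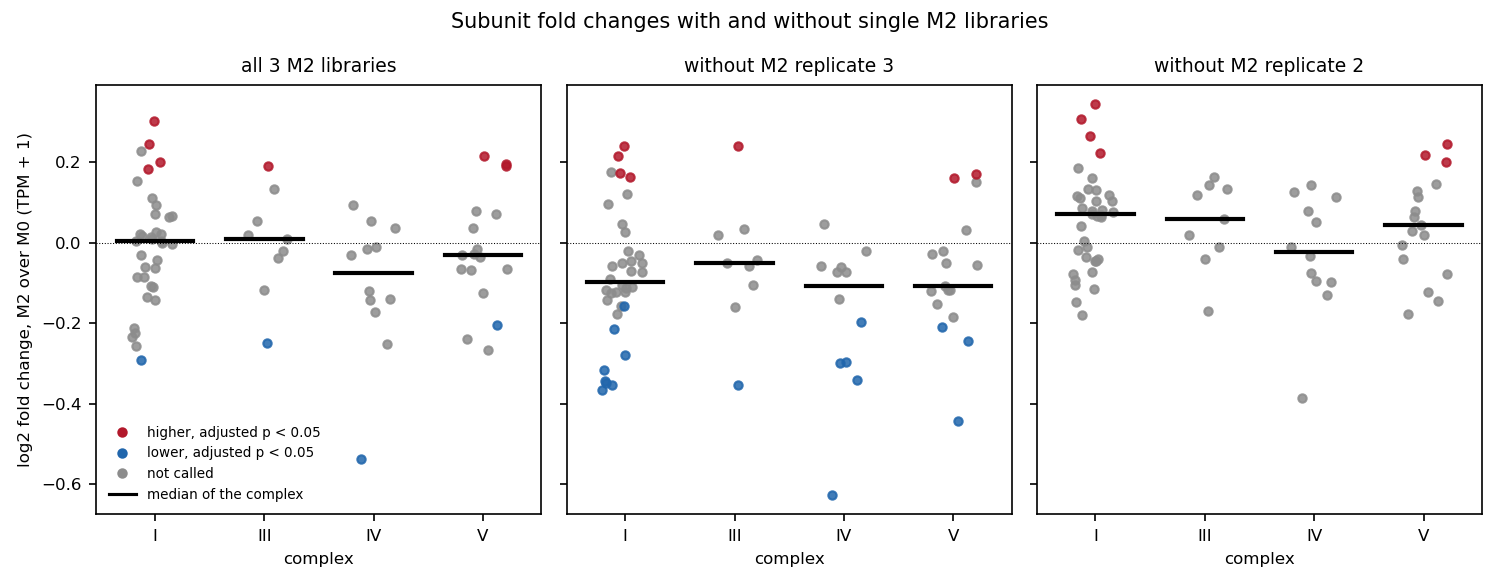
Log2 fold change of the 74 tested subunit genes, M2 over M0 on the log2(TPM + 1) scale, by complex, with all 3 M2 libraries and without M2 replicate 3 or 2; black lines are medians. Counts of blue points go from 4 to 17 and to 0, while red points go from 8 to 7 and 7. Of all tested genes, 23.7, 25.2 and 22.1% were called lower in these fits and 20.1, 25.6 and 16.2% higher.

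Leaving out a library of the other 4 lowered the number of calls. Without M0 replicate 1, 3 members were called higher (background 15.3%) and 0 lower (background 19.2%; 3 at an unadjusted p under 0.05 by limma). Without M0 replicate 2, only Ndufs8 was called higher (background 15.2%) and Ndufv3 and Cox7a1 lower (background 17.0%). Without M0 replicate 3, Ndufs8 was the single call, with 1 higher (background 14.7%) and 0 lower (background 17.1%; 3 at an unadjusted p under 0.05). Without M2 replicate 1, 5 were called higher (background 17.2%) and 4 lower (background 21.9%), Atp5g2 among the latter.

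Fold changes of members were related to the length of the gene model. Spearman's rho between length and log2 fold change was 0.38 over the 74 tested members and 0.49 without M2 replicate 3. Over all 11202 tested genes it was -0.11 and 0.02. With each library's trend on length subtracted, rho over the members was 0.28. These values are across genes of the same libraries and carry no p. Of the 8 members higher in M2, 6 have models over 1000 bases, as do 20 of the 74 tested. The shortest model among the 8 is 763 bases (Atp5o). In M2 replicate 3 the level of all tested genes around 500 bases lay 0.11 (log2) above the mean of the 6 libraries and around 4000 bases 0.15 below it (-0.15), while in M2 replicate 2 genes around 500 bases lay at -0.15.

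Among members up to 1000 bases, 2 of 54 were higher (3.7%) and 3 lower (5.56%), against 14.6% and 13.5% of the 1286 tested genes of that length. Without M2 replicate 3 the shares were 1.85% and 27.8%, against 14.5% and 22.5%. Among members over 1000 bases, 6 of 20 were higher and 1 lower, against 20.8% and 25.0% of the 9916 longer genes. When each library's trend on length was subtracted, 12 members were called higher (background 28.4%) and 7 lower (background 27.1%). The rises then took in Ndufa4, Ndufb5, Ndufs3 and Cox7a2, and the falls Ndufa2, Ndufa6 and Cox5b, beside the 12 calls made without that step.

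**Figure D5:**
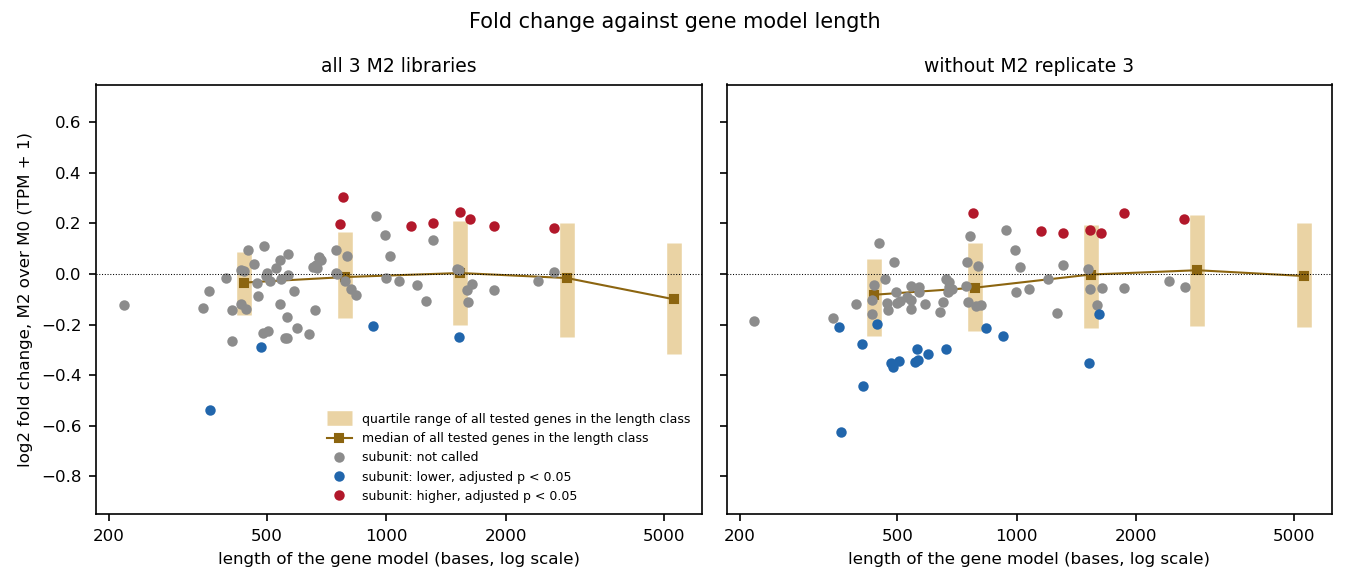
Log2 fold change (M2 over M0, log2(TPM + 1) scale) against gene model length in bases on a log axis, with all M2 libraries and without M2 replicate 3; points are tested subunit genes, squares are medians and bars the range between quartiles of all tested genes in 5 length classes. Without M2 replicate 3 the blue points gather among models up to 1000 bases, 15 of the 17.

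The authors' deposited table of M2 against M0 gave an adjusted p under 0.05 to 10 of the 74 tested members, 9 higher and 1 lower. The share of all genes under that limit in the authors' table was not computed, so these counts describe the members only. Of the 12 calls made here, 9 recur in the authors' deposited table in the same direction; that table adds Ndufs3 and lacks Atp5d, Cox7a1 and Uqcrq.

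Several lists of genes around the complexes held larger single changes than the subunits. Of 15 assembly factors of complex I, 5 rose and 1 fell, with a median log2 fold change of 0.158. Ndufaf4, which acts early in building the peripheral arm, rose from 12.8, 11.2 and 10.4 TPM to 28.9, 28.6 and 29.4 TPM, 2.53-fold (adjusted p = 9.82e-06). This was beyond the fold change of any of the 74 tested members. Tmem126b, an assembly factor of the membrane arm, rose 1.37-fold (adjusted p = 0.00145) and Ndufaf2 1.41-fold (adjusted p = 0.0113).

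Of 22 assembly factors of complex IV, 6 rose and 0 fell by limma (median 0.087; 1 lower at an unadjusted p under 0.05 and 0 by limma-voom). Without M2 replicate 3, Cox17, Surf1 and Pet100 of this list were called lower. Sco2, a copper chaperone, rose from 32.0, 32.8 and 38.0 TPM to 58.1, 59.2 and 58.6 TPM, 1.71-fold (adjusted p = 7.72e-05), Coa7 1.56-fold (adjusted p = 0.00139) and Sco1, the related copper chaperone, 1.45-fold (adjusted p = 0.00364). Of 6 factors for complex III, 2 rose, Uqcc1 by 1.39-fold (adjusted p = 0.00107) and Ttc19 by 1.33-fold (adjusted p = 0.0388). Of the 4 for complex V, its inhibitor Atpif1 included, Tmem70, which helps form the c-ring, rose 1.30-fold (adjusted p = 0.000758). Counts and medians of these lists describe them beside the 43.7% of all tested genes called, and the difference between assembly factors and subunits was not tested.

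Of the 4 subunits of complex II, Sdhd alone was called, from 196 to 224 TPM (1.14-fold, adjusted p = 0.0148). Of 14 genes for cytochrome c and ubiquinone synthesis, 4 rose and 2 fell. Pdss1, which builds the side chain of ubiquinone, rose from 19.9, 19.0 and 18.7 TPM to 32.9, 38.8 and 36.3 TPM, 1.87-fold (adjusted p = 4.35e-05). Cycs, cytochrome c, rose 1.21-fold (adjusted p = 0.0201) and Coq10b 1.38-fold (adjusted p = 0.00868). Of 6 tested carriers and channels of adenine nucleotides and phosphate, 2 rose, Slc25a5 by 1.17-fold (adjusted p = 0.0253) and Vdac3 by 1.17-fold (adjusted p = 0.0106). Ndufab1 averaged 25.8 and 24.6 TPM and was not called.

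Of 12 tested regulators of mitochondrial genes, 6 rose and 1 fell. Esrra, which encodes an ERR receptor, rose from 30.9, 33.9 and 37.4 TPM to 45.7, 44.7 and 43.0 TPM, 1.31-fold (adjusted p = 0.0037). Tfb2m, a transcription factor of mitochondrial DNA, rose 1.52-fold (adjusted p = 0.00325). Nfe2l2, the oxidative-stress factor NRF2, fell from 104, 107 and 106 TPM to 66.4, 66.2 and 64.9 TPM, 0.623-fold (adjusted p = 1.98e-05). The genes of the other factors whose motifs were searched were chosen for those motifs after values of these data were seen. Nrf1, Gabpa and Yy1 were not called, at 16.0 and 15.5, 19.1 and 19.9, and 40.1 and 39.1 TPM in M0 and M2. Stat6, the gene of the factor that the IL-4 receptor activates, had 65.5, 68.6 and 62.3 TPM in M0 and 55.6, 56.2 and 44.8 TPM in M2, 0.797-fold without overlap (adjusted p = 0.0168), a call lost without M0 replicate 1 or 2 (adjusted p up to 0.0644). The coactivator gene Ppargc1a stayed below the level tested. Of the 18 called genes of the related lists named above, 14 were called in all 6 fits without a library. Sdhd (adjusted p up to 0.0704) and Cycs (up to 0.0748) were lost in 2 of those fits, Slc25a5 (up to 0.102) in 4 and Ttc19 (up to 0.144) in 5, always including fits without an M0 library.

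Counts of the related lists moved with the library left out. Without M2 replicate 3, Sdhc of complex II and Atpaf1 and Atpif1 of the complex V list were also called lower. Without M0 replicate 2, 3 assembly factors of complex I, 3 regulators and 2 of the genes for cytochrome c and ubiquinone rose, and without M0 replicate 1 the last of these lists also had 2 rises. The 2 falls of that list became 1 without M0 replicate 2 or M2 replicate 1 and 0 without M0 replicate 1, M0 replicate 3 or M2 replicate 2. The fall among the assembly factors of complex I, in Ndufaf3, was lost without M0 replicate 1 or M2 replicate 2. Under median-ratio scaling, and with the length trend removed, 8 of those 15 factors rose, against 2720 and 3182 of all 11202 tested genes. For the fits without a library, the shares of all tested genes are those given with the members above.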

How the data were processed

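The members, role groups, related gene lists and tests were chosen with earlier results of these data known. Per the submitters' processing notes, STAR 2.7.5a, HOMER 4.11.1, bcl2fastq and DESeq2 were used with the mm10 genome. The authors deposited TPM values per library for 25124 genes, and a second table with expression per library on a log2 scale and their own log2 fold changes, p-values and adjusted p-values of M2 against M0; the sources used here do not name the normalisation of that table. The file held no counts, so TPM was tested with limma 3.58.1 (R 4.3.3, mean-variance trend, group as the only term) on log2(TPM + 1). Genes needed 1 TPM in at least 3 libraries, and p-values were adjusted by Benjamini-Hochberg over all 11202 genes tested. Fold changes from this scale understate those of low genes; ratios in the text are of mean TPM.

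TPM multiplied by model length fell within 0.1 read of whole multiples of 1 value per library for 100.0% of values fine enough to tell (20.0% by chance), which gave reads per gene model for limma-voom alternatives. The share is a property of the deposited decimals, and the reads are those assigned to gene models. The limma script was tested on simulated data that held no trends on length, so that test cannot show how such trends move the calls. Values of 1 subunit gene are not reported here by name. The genes named were, per complex, up to 4 called members with the largest rise and fall, and sets of isoforms. Listed subunits of the complex I core, complex III, complex IV and the head of complex V were also named. Of each related list, up to 3 called genes with the lowest adjusted p were named. Other members are named where a count or a left-out library turned on them, after their values were seen. Promoters and coordinates came from RefSeq on GRCm38.p6 and the file, antisense exons and copies from GENCODE M21 on GRCm38 (blastn 2.17.0). The alternatives were another pseudocount, filters, scalings, a fit without the trend, recovered reads, removal of each library's length trend (lowess, span 0.3), the authors' second table, the replicate number as a block, and leaving out each library.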

Additional observations from a re-analysis of the deposited data

How the results depend on the processing

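Over the 51 named genes tested and 17 alternatives, 759 of 867 results stayed on the same side of the threshold, 735 of them with the same sign and 24, all of genes not called, with another. Of the rest, 90 lost the call and 18 gained one, and 0 called genes changed sign. With the length trend removed, complex I held 7 rises and 3 falls and complex IV 1 rise and 2 falls. Without the filter on low values, the rises were 2 in complex I, 0 in complex III and 1 in complex V, and all 4 complexes had 0 falls. Under limma without a trend, complex III had 0 rises, and complexes I, III and V had 0 falls. Median-ratio scaling and limma-voom with TMM or upper-quartile factors gave 0 falls in all 4 complexes. Of all 11202 tested genes, 2500 were lower under median-ratio scaling and 2681 under limma-voom with TMM factors. Shares of all genes are given above for the limma fits without a library and with the length trend removed. For the other alternatives of this section none is given, so those counts describe the members only. Under median-ratio scaling 11 members that were not called changed sign, and 0 called members did. A pseudocount of 0.1 gave 0 falls in complexes I and III, and the values of the authors' second table gave 0 falls in complexes III and V. limma-voom without M2 replicate 3 gave 8, 5 and 3 falls in complexes I, IV and V. Leaving out each library in turn, rises ranged from 1 to 4 in complex I, 0 to 1 in complex III and 0 to 3 in complex V, and falls from 0 to 8 in complex I, 0 to 1 in complex III, 0 to 5 in complex IV and 0 to 3 in complex V. The cause of these shifts was not tested.

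With the replicate number as a block (replicate block), complex I held 5 rises and 3 falls, complex IV 2 falls and complex V 3 falls. The labels do not say whether same-numbered M0 and M2 libraries belong together. Deviations of same-numbered libraries correlated at -0.0329, 0.211 and 0.0289, and those of the other pairs at -0.202 to 0.166. With 3 libraries per group these values cannot decide whether the groups are paired. Of the 12 called members, 11 lost the call in at least 1 fit that leaves out a library. The share of all called genes that did so was not computed. Without an M0 library, 14.7 to 15.3% of all tested genes were called higher, against 20.1% with all libraries. Lost calls went with larger estimates in some fits and smaller ones in others. Ndufv2 stood at log2 0.246 with all libraries. It stood at 0.262, 0.208 and 0.269 without M0 replicates 1 to 3, where it was not called. Every call lost without M2 replicate 2 went with a smaller estimate, among them Ndufs1 (0.183 to 0.134) and Ndufv3 (-0.290 to -0.178). Why calls were lost was not tested.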
